A study of Mus musculus with 10 samples.

Results

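AP-1 is a dimeric transcription factor built from members of the Jun and Fos families, and its 7 core subunit genes, Jun, Junb, Jund, Fos, Fosb, Fosl1 and Fosl2, were read by gene symbol from the RNA-seq tables of ASZ001 cells. All 7 were listed in both tables, among 17658 genes in the SB431542 table and 16719 genes in the T-5224 table. ASZ001 is a murine basal cell carcinoma (BCC) line that the study used as a resistant BCC model, so every library comes from a single cell line. All groups were kept for 24 h in low-serum 154CF medium with chelated FBS and added calcium. In the first experiment, cells received vehicle (DMSO, n = 3 libraries) or 10 µM SB431542 (n = 3), an inhibitor of the TGFß receptor kinase ALK5. The second experiment had 2 DMSO libraries and 2 of cells given T-5224 at 20 µM, an inhibitor of AP-1. The tables were normalized separately and share no control library, so each inhibitor was set against the DMSO libraries of its own table.

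Jun proteins can pair with each other or with a Fos protein through a leucine zipper, whereas Fos proteins need a Jun partner to bind DNA. The dimers bind the TRE, a short palindromic element, and related CRE elements, and the pair that forms sets how strongly a target gene is switched on. Fos, Fosb, Jun and Junb are classic immediate early genes that rise within minutes of a mitogen or stress signal, Fosl1 (Fra-1) and Fosl2 (Fra-2) follow more slowly and lack the transactivation domain of Fos, and Jund is present more constantly. In skin, AP-1 controls keratinocyte proliferation and differentiation.

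Values are RPKM, read numbers adjusted for gene length and library depth, which allows levels of different genes to be compared. The test was limma's on log2(RPKM + 0.5), run for genes with a mean of at least 1 RPKM over all libraries of a table. A gene passed at an adjusted p under 0.05 over all genes tested, and it was called when its log2 fold change was also beyond 1 in size. Fosb was under the filter in both tables, which left 6 subunits tested in each. Because low values are damped by the added 0.5, the fold changes of Fos and Fosl1 on this scale understate the ratio of their RPKM.

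The genes lie on 6 mouse chromosomes in the mm9 build. Jun is on chromosome 4 (94715725 to 94718913, minus strand), Junb on chromosome 8 (87500811 to 87502617, minus strand) and Jund also on chromosome 8 (73221638 to 73224515, plus strand). In the GENCODE annotation of that build the longest transcript of each Jun gene is a single exon. Fos is on chromosome 12 (86814840 to 86818223, plus strand), Fosb on chromosome 7 (19888070 to 19895394, minus strand), Fosl1 on chromosome 19 (5447703 to 5455945, plus strand) and Fosl2 on chromosome 5 (32438845 to 32460204, plus strand). The longest transcript of each Fos family gene has 4 exons. Annotated genes on the opposite strand overlap Jun (BC042782), Jund (Gm11175) and Fosl1 (Ccdc85b), and since the strand setting of the counting is not given in the sources used here, their reads may not have been kept apart. Neither BC042782 nor Gm11175 was listed by symbol among the genes of either experiment, so their levels are not given.

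The sequence just upstream of the start is shown for the 4 subunits that passed with T-5224 and had an entry in the RefSeq promoter table (GRCm38.p6, 6 of the 7 subunits matched), since T-5224 is directed at the binding of AP-1 to such elements. Each line holds the 250 bases before the annotated start, 5′ to 3′ on the strand of the gene, with coordinates in GRCm38.p6. Capitals mark TGACATCA in Jun, TGACG in Junb and Fos, and TATAAA in Fos.
Jun (chr4:95052223-95052472, minus strand): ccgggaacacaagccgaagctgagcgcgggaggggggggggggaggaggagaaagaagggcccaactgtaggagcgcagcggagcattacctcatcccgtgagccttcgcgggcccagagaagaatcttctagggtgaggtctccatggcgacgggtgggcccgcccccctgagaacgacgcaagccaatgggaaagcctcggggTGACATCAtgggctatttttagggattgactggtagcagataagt
Junb (chr8:84978749-84978998, minus strand): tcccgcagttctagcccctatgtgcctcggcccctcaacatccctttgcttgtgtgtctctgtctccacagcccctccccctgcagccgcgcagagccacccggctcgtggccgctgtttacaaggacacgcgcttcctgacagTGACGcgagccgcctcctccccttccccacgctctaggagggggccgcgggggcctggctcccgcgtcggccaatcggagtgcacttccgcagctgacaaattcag
Fos (chr12:85473640-85473889, plus strand): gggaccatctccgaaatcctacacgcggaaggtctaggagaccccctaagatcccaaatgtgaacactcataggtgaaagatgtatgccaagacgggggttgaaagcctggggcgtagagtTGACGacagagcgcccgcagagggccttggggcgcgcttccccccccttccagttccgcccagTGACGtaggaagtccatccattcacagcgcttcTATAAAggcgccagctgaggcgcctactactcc
Fosl2 (chr5:32136222-32136471, plus strand): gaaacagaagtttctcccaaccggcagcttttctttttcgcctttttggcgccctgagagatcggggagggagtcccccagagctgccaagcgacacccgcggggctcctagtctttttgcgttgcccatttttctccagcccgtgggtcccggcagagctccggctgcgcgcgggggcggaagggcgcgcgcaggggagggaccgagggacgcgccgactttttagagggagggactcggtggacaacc

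The Jun window holds TGACATCA, a TRE-like octamer, from base -45 to base -38 counted from the start. Over 27025 mouse promoters, 3.02% held it in a window of the same length on either strand. The Fos window holds the CRE core TGACG at -129 to -125 and again at -66 to -62, and TATAAA on the forward strand at -33 to -28. Junb holds 1 TGACG at -106 to -102, and the Fosb window, not printed here, holds 1 at -60 to -56. TGACG occurred in 17.9% of all promoters on either strand, and TATAAA in 8.12% on the forward strand. The full TRE TGACTCA (4.43% of all promoters), the full CRE TGACGTCA (1.62%), which contains TGACG, and the CArG box bound by serum response factor (1.40%) were not found in any of the 6 windows, and Jund and Fosl2 held none of the letters searched. A match describes the letters of these windows only.

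In DMSO, 3 Jun genes and 1 Fos gene made up nearly all AP-1 subunit RNA. The 4 abundant subunits were Jund, Junb, Jun and Fosl2, and Fos, Fosb and Fosl1 were each below 2 RPKM. In the first experiment, Jund ranked first in DMSO and was 1.09 to 1.46 times Junb within a library. Junb and Jun could not be ordered, because Junb was higher in 2 of 3 libraries and their ranges overlapped. Jun exceeded Fosl2 in every library, by 1.17 to 1.55 times, and Fosl2 exceeded Fos by 31.4 to 45.1 times. Fos and Fosl1 again overlapped, and Fosb was the lowest.

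In the second experiment the order in DMSO differed in the place of Fosl2. Jund was 1.67 to 1.69 times Junb, and Junb and Fosl2 were within 1.02 times of each other in both libraries, with overlapping ranges. Fosl2 was 2.14 to 2.17 times Jun. The 3 scarce subunits followed in the order Fos, Fosb and Fosl1, without overlap. These levels come from tables normalized separately, and no test was made between them. In both sets of DMSO libraries the Jun family held most of the summed RPKM, 80.8% ± 0.715 (SD, n = 3) and 75.9% ± 0.107 (SD, n = 2).

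**Figure D1:**
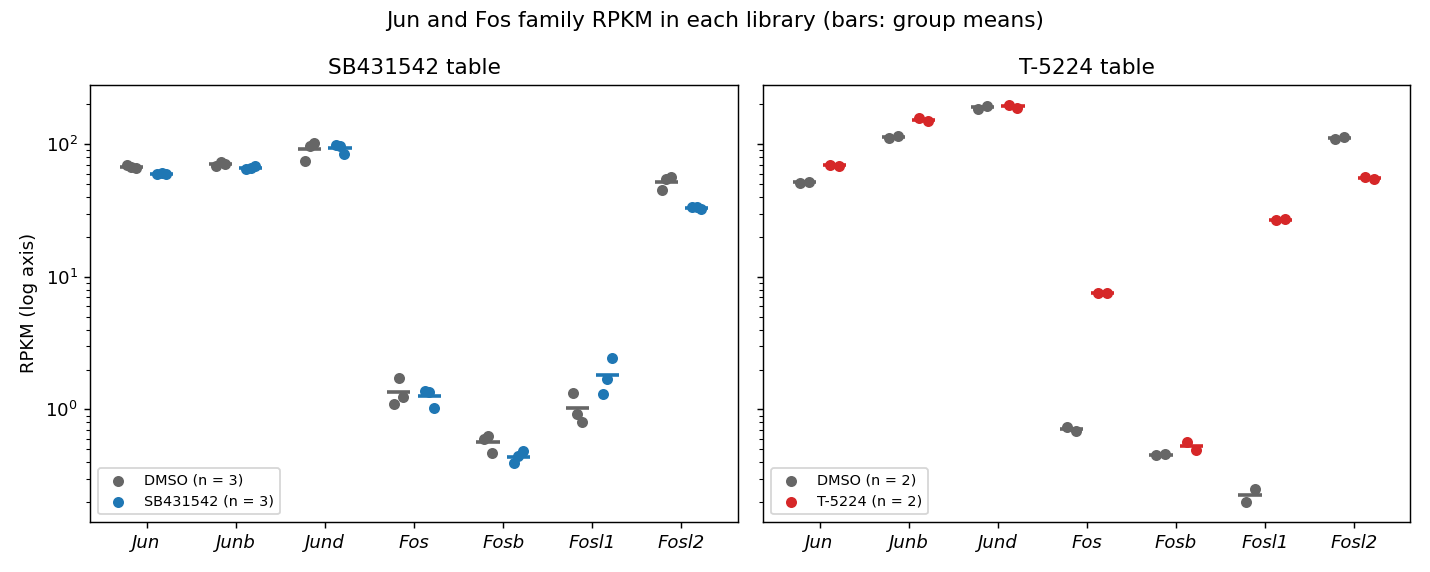
RPKM (log axis) of the 7 subunits in each library of the SB431542 table (left, 3 DMSO and 3 SB431542 libraries) and the T-5224 table (right, 2 DMSO and 2 T-5224 libraries), with points for libraries and bars for group means. Jun, Junb, Jund and Fosl2 sit between 32.5 and 199 RPKM in every group, and Fosl1 moves from 0.201 and 0.252 RPKM in DMSO to 26.7 and 27.5 RPKM with T-5224.

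With SB431542, the mean RPKM of Fosl2 fell by 35.8% and that of Jun by 11.5%. The other subunits tested did not pass. Of the 6 tested, 2 passed, both lower, and none was called. Over all 10842 genes tested, 20.2% passed (10.0% lower and 10.2% higher) and 0.812% were called (0.581% lower and 0.231% higher). At an unadjusted p under 0.05, 3 subunits were past the threshold (limma). The share of all genes at that threshold is not given here, and the 20.2% holds for adjusted p only. None of the 6 had a log2 fold change beyond 1. The median log2 fold change of the 6 was -0.08, against 0.01 over all genes tested.

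Fosl2, the main Fos family partner in these cells, was at 45.0, 54.7 and 56.3 RPKM in DMSO and at 33.8, 33.8 and 32.5 RPKM with SB431542. Each treated value was under the lowest DMSO value. Its log2 fold change was -0.62 (SE 0.09, 95% confidence interval -0.83 to -0.42, adjusted p = 0.00400, limma), a DMSO level 1.56 times the treated one. Among all genes tested, 2.19% fell at least as far. It passed with each library left out, with log2 fold changes from -0.72 to -0.56.

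Jun, the founding member of the family and the target of JNK phosphorylation, was at 69.6, 67.7 and 66.1 RPKM in DMSO and at 59.3, 61.1 and 59.5 RPKM with SB431542. The groups did not overlap, as for 45.1% of all genes tested. The log2 fold change was -0.17 (SE 0.05, adjusted p = 0.0399, limma), and 19.8% of genes fell at least as far. Jun no longer passed with any library left out except DMSO replicate 1 (adjusted p from 0.0603 to 0.148, limma).

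Junb, which can restrain as well as activate Jun targets, was at 68.8, 73.4 and 70.6 RPKM in DMSO and at 65.0, 66.4 and 68.2 RPKM with SB431542. The treated libraries lay just below the DMSO libraries, and the log2 fold change of -0.09 did not pass (adjusted p = 0.227, limma). Jund, the most abundant subunit, was at 74.7, 97.7 and 103 RPKM in DMSO and at 98.1, 96.9 and 85.1 RPKM with SB431542. DMSO replicate 1 was the lowest of the 6 and the groups overlapped, with a 95% confidence interval of the log2 fold change from -0.25 to 0.32 (limma).

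Fosl1, a Fos family gene whose level is known to follow ERK activity, was at 1.34, 0.927 and 0.808 RPKM in DMSO and at 1.31, 1.695 and 2.43 RPKM with SB431542. SB431542 replicate 1 lay below DMSO replicate 1, so the groups overlapped. The log2 fold change of 0.59 (SE 0.20) did not pass (adjusted p = 0.0770, limma). Without DMSO replicate 1 it was 0.73 and passed (adjusted p = 0.0157, limma). That library stood further from the rest of its group than any other, with an SD of its deviations over genes of 0.272 in log2, against 0.123 to 0.190 in the other 5 libraries. With it left out, 4 subunits passed, Jun, Junb and Fosl2 lower and Fosl1 higher, where Junb had an adjusted p of 0.0392 (limma). The share of all genes that passed in that fit is not given here, so the 4 are a description only.

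Fos, the prototype immediate early gene, was at 1.09, 1.74 and 1.25 RPKM in DMSO and at 1.39, 1.36 and 1.02 RPKM with SB431542. These ranges overlapped, and the 95% confidence interval of the log2 fold change ran from -0.43 to 0.28 (limma). Fosb, a close relative of Fos, was at 0.602, 0.627 and 0.468 RPKM in DMSO and at 0.396, 0.442 and 0.484 RPKM with SB431542, again with overlap, and it was not tested. In all, 3 of the 7 subunits did not overlap between the groups, Jun, Junb and Fosl2, beside 45.1% of all genes tested.

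With T-5224, Fosl1 and Fos rose from below 1 RPKM. The mean RPKM of Fosl2 fell by 49.7%, that of Jun rose by 34.6% and that of Junb by 36.0%, and Jund did not pass. Of the 6 subunits tested, 5 passed, 1 lower and 4 higher, and 2 were called, both higher. Over all 10809 genes tested, 79.7% passed (39.4% lower and 40.3% higher) and 21.0% were called (10.6% lower and 10.4% higher), so 5 of 6 is near the share of all genes that passed. Fos and Fosl1, the called subunits, reached the filter of 1 RPKM through the T-5224 libraries alone, so their place among those that passed is no support for a change. Of the 4 subunits with at least 1 RPKM in DMSO, 3 passed. Over all genes tested, the quartiles of the log2 fold change were -0.50 and 0.50.

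Fosl1 was at 0.201 and 0.252 RPKM in DMSO and at 26.7 and 27.5 RPKM with T-5224. No DMSO library came near a treated one. The ratio of the mean RPKM was 120-fold, and the DMSO values rest on about 11 and 17 reads, against about 2349 and 2302 reads in the treated libraries. On log2(RPKM + 0.5) the log2 fold change was 5.25 (SE 0.09). As Fosl1 reached the filter only through the treated libraries, its p is given from the fit to all listed genes with no filter (adjusted p = 2.77e-05, limma). With a pseudocount of 0.1 or 1 it was 6.38 or 4.52. Fosl1 overlaps Ccdc85b on the opposite strand. The mean of Ccdc85b was 4.93 RPKM in DMSO and 6.14 RPKM with T-5224 (log2 fold change 0.29, adjusted p = 0.00952, limma).

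Fos was at 0.736 and 0.684 RPKM in DMSO and at 7.61 and 7.57 RPKM with T-5224, a 10.7-fold ratio of means. The treated libraries differed from each other by far less than from DMSO. The log2 fold change was 2.74 (SE 0.10), and the fit with no filter again gives the p, since Fos too entered the filtered test through its treated values (adjusted p = 6.84e-05, limma). Fosb, in contrast, was at 0.452 and 0.459 RPKM in DMSO and at 0.566 and 0.497 RPKM with T-5224. Both treated values lay above both DMSO values, at levels under the filter, and without the filter the log2 fold change was 0.11 (adjusted p = 0.294, limma).

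Fosl2 was at 109.8 and 113 RPKM in DMSO and at 56.9 and 54.9 RPKM with T-5224. It was the subunit that fell, in both libraries, with a DMSO level 1.99 times the treated one. The log2 fold change was -0.99 (SE 0.05, adjusted p = 1.11e-08, limma), just inside the limit for a call, and 10.9% of genes fell at least as far. The value with each library left out lay between -1.01 and -0.96.

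Among the Jun genes, Jun was at 51.3 and 51.9 RPKM in DMSO and at 69.9 and 69.0 RPKM with T-5224. Junb was at 111 and 115 RPKM in DMSO and at 157 and 151 RPKM with T-5224. Neither gene overlapped between the groups, and their log2 fold changes were close, 0.43 (SE 0.05, adjusted p = 1.35e-05, limma) for Jun and 0.44 (SE 0.05, adjusted p = 8.75e-06, limma) for Junb. Rises of at least this size were frequent, in 28.2% of genes for Jun and 27.6% for Junb. Jund was at 186 and 194 RPKM in DMSO and at 199 and 189 RPKM with T-5224. Its ranges overlapped, and the log2 fold change of 0.03 (adjusted p = 0.605, limma) had a 95% confidence interval from -0.09 to 0.15. In all, 6 of the 7 subunits did not overlap between the groups, as did 89.7% of all genes tested.

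**Figure D2:**
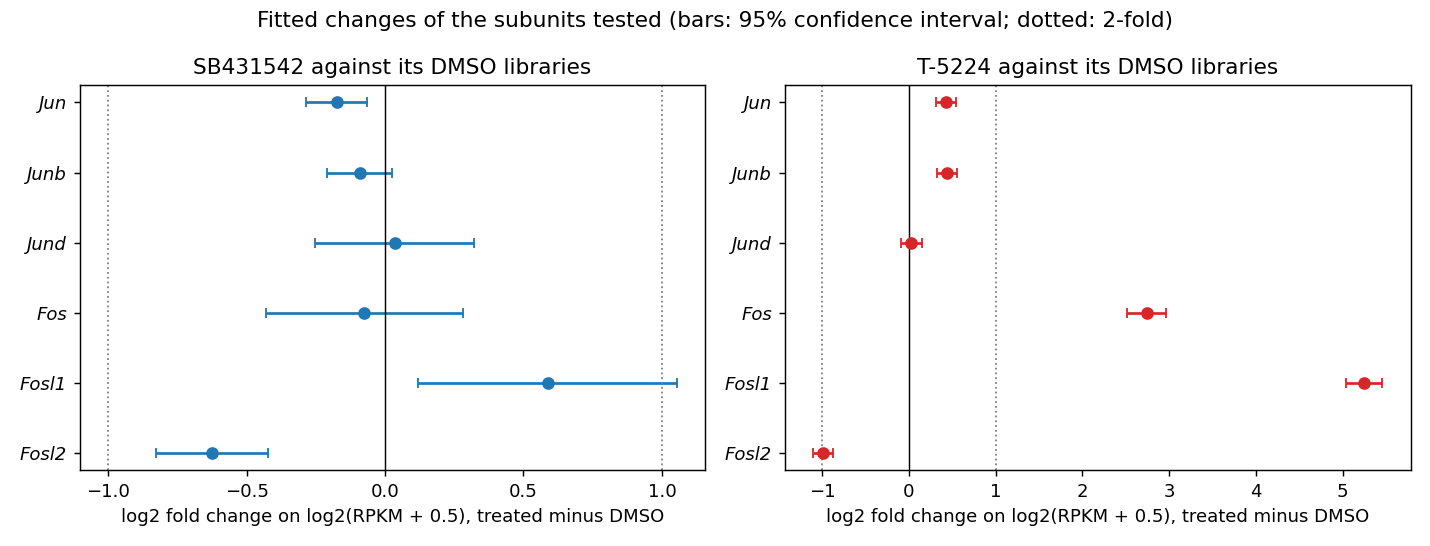
Log2 fold changes of the 6 subunits tested, treated minus DMSO on log2(RPKM + 0.5), with SB431542 (left) and T-5224 (right), on axes of different range. Points are fitted values, bars the 95% confidence interval from limma, and dotted lines a 2-fold change. Fosl2 lies below 0 in both panels (-0.62 and -0.99), and Fos (2.74) and Fosl1 (5.25) lie beyond 2-fold with T-5224.

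**Figure D3:**
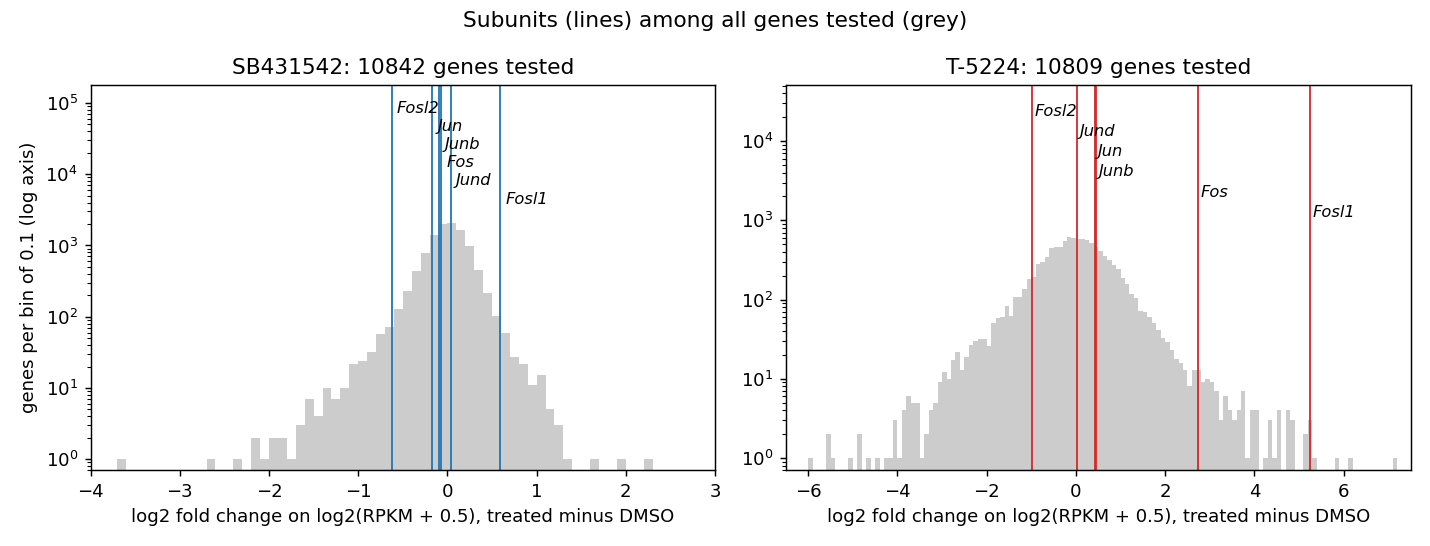
Histograms of the log2 fold change of all genes tested with SB431542 (left, 10842 genes) and T-5224 (right, 10809 genes), in bins of 0.1 with a log axis for the number of genes, and a line for each subunit tested. Jun, Junb and Jund lie within the bulk of genes in both panels, and Fosl1 with T-5224 (5.25) lies near the upper edge. Fos and Fosl1 were in the T-5224 panel only because their treated values were high.

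The values of each subunit with the inhibitors can be read side by side, as the experiments had separate controls, doses and numbers of libraries and the difference between inhibitors was not tested. Fosl2 had log2 fold changes of -0.62 with SB431542 and -0.99 with T-5224, and passed in both. Jun had -0.17 and 0.43, and Junb had -0.09 and 0.44. Jund had 0.03 in each, and did not pass in either. Fosl1 had 0.59 and 5.25, and Fos had -0.07 and 2.74.

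The composition of the subunit RNA was followed as each subunit's share of the summed RPKM of the 7 genes. The Fos family made up 18.4%, 19.5% and 19.7% of the sum in DMSO and 14.2%, 14.3% and 14.6% with SB431542. Every treated library was lower, by 4.84 percentage points on average, and the exact two-sided permutation test gave p = 0.1, the smallest that 3 against 3 libraries allow. With T-5224 it went from 24.2% and 24.0% to 17.7% and 18.1%, 6.18 percentage points lower, with an exact permutation p of 0.333, the smallest that 2 against 2 libraries allow. With RPKM weighted by the longest annotated transcript, as an approximate share of reads, the T-5224 difference was -14.7 points. Without Jund it was -11.6 points. With SB431542 these were -7.85 and -5.74 points. Neither design can reach 0.05.

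The shares within the Fos family moved differently in the 2 experiments. Fosl2 held 94.6% ± 1.03 (SD, n = 3) of Fos family RPKM in DMSO and 90.5% ± 1.23 (SD, n = 3) with SB431542, and the ranges did not overlap. In the T-5224 experiment it held 98.8% ± 0.0185 (SD, n = 2) in DMSO and 61.4% ± 0.931 (SD, n = 2) after treatment. Fosl1 took up 29.7% ± 0.930 (SD, n = 2) of the family with T-5224, from 0.201% ± 0.0284 (SD, n = 2), and Fos 8.33% ± 0.0488 (SD, n = 2), from 0.631% ± 0.0440 (SD, n = 2). Fosl2 thus remained the largest Fos family member in the treated libraries, 2.00 to 2.13 times Fosl1. With SB431542 the share of Fosl1 was 4.92% ± 1.61 (SD, n = 3), from 1.92% ± 0.757 (SD, n = 3).

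Within the Jun family, Jund held 53.5% ± 0.337 (SD, n = 2) in DMSO and 46.5% ± 0.351 (SD, n = 2) with T-5224. Junb held 31.9% ± 0.113 (SD, n = 2) and then 36.9% ± 0.0263 (SD, n = 2), and Jun 14.6% ± 0.225 (SD, n = 2) and then 16.7% ± 0.325 (SD, n = 2). None of these ranges overlapped. With SB431542 the ranges of all 3 Jun family shares overlapped those in DMSO.

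The summed RPKM of all 7 subunits ran from 261 to 298 in DMSO and from 249 to 262 with SB431542, so the ranges overlapped. With the second set of libraries the sum was 459.6 and 474 RPKM in DMSO and 517 and 499 RPKM after treatment, without overlap. The Jun family had 4.21 ± 0.198 RPKM (SD, n = 3) for each Fos family RPKM in DMSO and 5.96 ± 0.0991 (SD, n = 3) with SB431542. With T-5224 this ratio went from 3.15 ± 0.0183 (SD, n = 2) to 4.58 ± 0.0864 (SD, n = 2). RNA levels do not give the amount of protein or of dimer, and in bulk RNA fewer cells of a kind and less RNA per cell cannot be told apart.

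**Figure D4:**
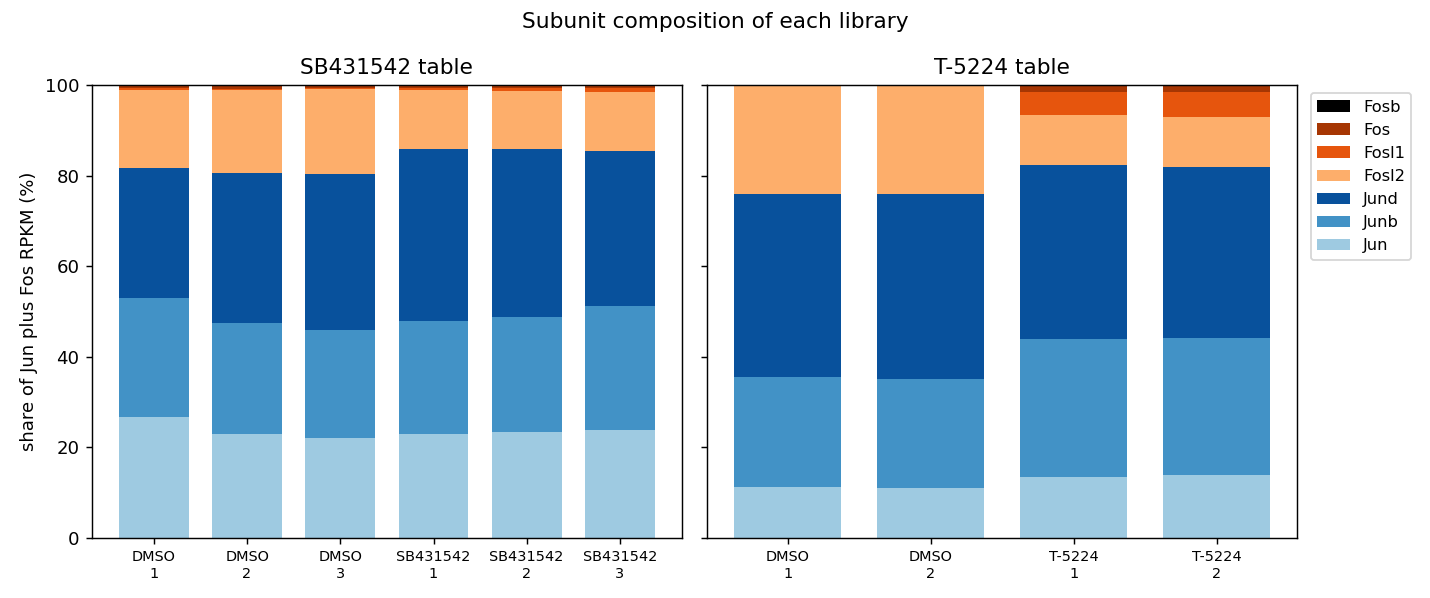
Share of each subunit (%) in the summed RPKM of the 7 subunits, as 1 stacked bar per library, for the SB431542 table (left) and the T-5224 table (right), with the Jun family in blue and the Fos family in orange to black. The Fos family takes 18.4% to 19.7% in DMSO and 14.2% to 14.6% with SB431542, and Fosl1 and Fos become visible beside Fosl2 in the T-5224 libraries.

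Genes that act on the subunits were followed as lists, described by counts and with no test of a list. Over all genes tested, 10.0% passed lower and 10.2% higher with SB431542, and 39.4% lower and 40.3% higher with T-5224. In the T-5224 counts, Map3k5, Batf3, Plaur, Areg, Nr4a1 and Nr4a3 had a DMSO mean under 1 RPKM and were tested through their treated values. Map3k12, Mmp10 and Mmp13 had a treated mean under 1 RPKM with T-5224 and were tested through their DMSO values. Those counts are thus a description only, as are those of Areg and Ereg with SB431542. The JNK arm holds the kinases, scaffolds and phosphatases that act on Jun through JNK, and GADD45 proteins linked to it. With SB431542, 3 of its 24 tested genes were lower, 1 was higher and 20 did not pass, and Gadd45g was called (log2 fold change -1.28, SE 0.06, adjusted p = 4.01e-05, limma). The 1 higher gene did not pass without any 1 of the SB431542 libraries or without DMSO replicate 3. With T-5224, 9 of 24 were lower and 8 higher, 17 in all beside 79.7% of all genes, led by Gadd45a, a stress-induced activator of the upstream kinases (log2 fold change 4.25), the JNK phosphatase gene Dusp10 (-1.53) and the JNK scaffold gene Mapk8ip3 (1.33). The 8 became 5 without T-5224 replicate 1.

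Genes of Fos induction comprise the ERK cascade and the factors that bind the Fos promoter. With SB431542, 1 of 21 tested was lower, the serum response factor coactivator Mkl1 (log2 fold change -0.25), and 1 higher, the kinase gene Rps6ka4 (0.35). Both counts went to 0 when any 1 SB431542 library was left out, and to 2 each without DMSO replicate 1. With T-5224, 10 of 21 were lower and 4 higher (39.4% and 40.3% of all genes), and none was called (limma), where 21.0% of all genes were. The coactivator gene Mkl2 (-0.86) and the ERK kinase gene Map2k1 (-0.81) had the largest changes.

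Turnover genes encode ubiquitin ligases and a deubiquitinase that act on Jun and Fos proteins. With SB431542, 2 of 10 tested were lower, the ligase genes Fbxw7 (log2 fold change -0.39) and Nedd4 (-0.16), and none passed higher. That count was 0 without any 1 SB431542 library and 1 without DMSO replicate 2 or 3. Without DMSO replicate 3, 1 gene also passed higher. With T-5224 all 10 passed, 5 lower and 5 higher (39.4% and 40.3% of all genes), and the same 2 ligase genes were lower, Nedd4 with a log2 fold change of -0.95 and Fbxw7 with -0.76. The 5 higher became 3 without DMSO replicate 2 or T-5224 replicate 1.

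Other basic leucine zipper (bZIP) factors can take the place of a Jun or Fos partner. With SB431542, 2 of 14 tested were lower and 5 higher, among them Batf3, a partner of Jun proteins (log2 fold change 0.69). The 5 became 2 without DMSO replicate 2 or 3, 3 without SB431542 replicate 1 and 1 without SB431542 replicate 2 or 3. With T-5224, 3 of 14 were lower and 10 higher (39.4% and 40.3% of all genes), with a median of 1.26. The stress factor genes Atf3 and Atf4 rose from 2.25 ± 0.0163 to 101 ± 0.623 RPKM (SD, n = 2) and from 46.1 ± 1.39 to 533 ± 16.7 RPKM (SD, n = 2).

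Textbook AP-1 target genes passed in shares near those of all genes with T-5224, 9 of 22 lower and 10 higher (39.4% and 40.3% of all genes), with a median log2 fold change of 0.01. Of these, 4 were called lower and 10 higher, beside 10.6% and 10.4% of all genes. The 4, named after their values were seen, were the matrix metalloproteinase genes Mmp3 (-1.96), Mmp10 (-1.94) and Mmp13 (-1.01) and the urokinase gene Plau (-1.30). Mmp10 and Mmp13 passed the filter only through the DMSO libraries, with T-5224 means of 0.957 and 0.985 RPKM. Ptgs2, the inducible cyclooxygenase gene, had a log2 fold change of 5.11, Areg, an EGF receptor ligand gene, 4.71, and Plaur, the urokinase receptor gene, 4.51, where Areg and Plaur passed the filter only through the treated libraries. With SB431542, 1 of 20 was lower and 8 were higher, with a median of 0.31. Spp1 (osteopontin, 1.17) and Sprr1a (a cornified envelope precursor, 1.12) were called. Sprr1a with SB431542 did not pass without SB431542 replicate 1 or 2 (adjusted p = 0.0507 and 0.0549, limma), and without DMSO replicate 3 its log2 fold change was 0.91. The 8 became 5 without SB431542 replicate 2, and the 1 became 2 without DMSO replicate 1.

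Immediate early genes are induced together with Fos by mitogens. With T-5224, 9 of 15 tested were higher and 1 lower (40.3% and 39.4% of all genes). Beside Atf3, which is also in the bZIP list, Ier3 (log2 fold change 3.17) and Ier2 (2.64) rose most. With SB431542, 3 of 14 were higher and none lower, with Ier2 (0.51) and Nr4a1 (0.39) first. The 3 became 1 or 0 when 1 SB431542 library was left out, and 3 genes passed lower without DMSO replicate 1.

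For Fos and Fosl1, the called subunits, the genes with the most similar pattern were sought among 15997 genes listed in both tables, by the root mean square difference of log2(RPKM + 0.5) from the DMSO mean over the 10 libraries. The nearest to Fos were Acot2 (0.110), Paqr3 (0.115) and Mtm1 (0.132). Nearest to Fosl1 were Steap1 (0.237), Procr (0.317) and Areg (0.346). The match rests mainly on the T-5224 libraries, where these 6 genes had log2 fold changes between 2.60 and 5.21.

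The label of the line was checked against marker genes. All 7 keratinocyte markers were expressed, with Krt5 between 4809 and 5007 RPKM in the DMSO libraries of the first experiment and between 5916 and 6087 RPKM in those of the second. Their summed level went from between 9385 and 9563 RPKM in DMSO to between 6629 and 7090 RPKM with SB431542, and from between 11988 and 12649 RPKM to between 1692 and 1749 RPKM with T-5224. With SB431542 the sum followed Krt5 (log2 fold change -0.30) and Krt14 (-0.81), while Krt15 rose (0.49, adjusted p = 0.0291, limma) and Trp63, Cdh1, Itga6 and Itgb4 did not pass. With T-5224 all 7 were lower and passed. Of 20 markers of simple epithelium, fibroblasts, leukocytes, endothelium and melanocytes, 4 reached a mean of 1 RPKM (Epcam, Dcn, Cd68 and Pecam1). Ptprc, Col1a1, Cdh5, Kdr, Krt8 and Mlana were at or near 0 in every library, unlike those 4, which belong to the same lists except that of melanocytes. With SB431542, Epcam went from between 112 and 115 RPKM to between 131 and 137 RPKM, and Dcn from at most 2.21 RPKM to at least 3.53 RPKM. With T-5224, Dcn went from between 1.75 and 2.03 RPKM to between 2.43 and 2.67 RPKM, Epcam from between 68.1 and 73.3 RPKM to between 123 and 126 RPKM, and Cd68 from between 16.7 and 18.6 RPKM to between 32.7 and 33.2 RPKM. Pecam1 went from between 5.23 and 6.57 RPKM to between 2.60 and 2.83 RPKM with SB431542, and from between 10.7 and 11.8 RPKM to between 4.11 and 4.67 RPKM with T-5224. The part of these shifts in the subunit changes was not tested.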

How the data were processed

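RNA-seq libraries of ASZ001 cells (TruSeq Stranded mRNA, HiSeq2000) were aligned by the authors with TopHat to mm9, and the deposited RPKM were made with HOMER. The gene model and the strand setting of the counting are not given in the sources used here. For their own comparison the authors ran DESeq2 on counts, which were not used here. All 10 value columns were used. Since the DMSO columns of the T-5224 table carry the numbers 1 and 2 and the labels give 4 and 5, those columns were mapped to the group only. Rows whose symbol had become a date were left out, 22 and 23.

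Genes with a mean of at least 1 RPKM were tested in each table with limma 3.58.1 (R 4.3.3), with a mean-variance trend in eBayes, on log2(RPKM + 0.5) with Benjamini-Hochberg adjustment. Shares were compared with exact permutation tests. Other settings were pseudocounts of 0.1 and 1, no filter or a mean of at least 5 RPKM, median centring, quantile normalization, no trend, an unadjusted p, the 2-fold limit, a replicate block, each library left out and, for the shares, reads in place of RPKM and the sum without Jund. On simulated data, 199 of 200 genes changed by 2 in log2 were recovered in each experiment, with 15 false calls for SB431542 (10842 genes) and 13 for T-5224 (10809 genes).

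Depth, estimated from the steps of RPKM in genes shorter than 250 bases, was 32.0 to 51.6 M reads, and 42.0% to 56.7% of those values were within 0.03 of a whole read, so read numbers are approximate. Read numbers and shares of reads were derived from RPKM with the longest GENCODE transcript of each gene. As the gene model behind the RPKM is not given, both are approximations. The study calls the libraries biological replicates.

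The subunits and lists were chosen with earlier results of these data known. Named genes are all subunits, for each list and experiment up to 3 called genes with the largest change and no overlap (or up to 2 that passed where none was called), the 3 genes nearest in pattern to each called subunit, and the markers. A gene that this rule names in the bZIP list is not reported here.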

Additional observations from a re-analysis of the deposited data

How the results depend on the processing

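For SB431542, the count of 2 subunits that passed became 1 with median centring, without a mean-variance trend and with a replicate block, as Jun was lost (adjusted p = 0.0533, 0.0591 and 0.123, limma). It was 0 with the 2-fold limit and ran from 1 to 4 over the fits that left out 1 library. For those fits the share of all genes that passed is not given. The replicate numbers did not pair the libraries (correlations of same-numbered deviations of -0.15, 0.15 and -0.09), and with the block the Fos family share had an exact sign-flip permutation p of 0.25, the smallest that 3 pairs allow. No paired analysis was possible for T-5224 because its groups share no replicate number in the labels. The Fos family share was lower under every setting tried, by 4.59 to 7.85 percentage points with SB431542 and by 5.99 to 14.7 with T-5224, the widest as a share of reads.

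For T-5224, the 5 subunits that passed became 2 with the 2-fold limit. Fosl2 lay close to that limit (log2 fold change -0.986). It was beyond the limit with quantile normalization (-1.06), without DMSO column 1 (-1.005) and without T-5224 replicate 1 (-1.01), and inside it under the other settings. Jund did not pass under any setting and changed sign with quantile normalization (log2 fold change -0.038) and over the fits that left out 1 library (-0.0064 to 0.067, below 0 without DMSO column 1, at -0.00029, or T-5224 replicate 1). With SB431542, the fits that left out 1 library gave both signs for Jund (-0.11 to 0.12, below 0 without DMSO replicate 1 or SB431542 replicate 1), Fos (-0.18 to 0.067, above 0 without DMSO replicate 2 or SB431542 replicate 3), Mtm1 (-0.086 to 0.084, below 0 without DMSO replicate 1 or SB431542 replicate 2) and Paqr3 (-0.11 to 0.14, below 0 without DMSO replicate 1 or SB431542 replicate 1), none of which passed in any of these fits. The cause was not tested. A list count was taken as moved when it changed by more than 1.5 times, or to or from 0. This held in 42 of 168 settings with SB431542 and in 5 of 132 with T-5224. Fosl1 in DMSO rests on few reads, which limits the precision of its ratio.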
